A study of Mus musculus with 16 samples.

Results

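The 83 cytosolic ribosomal protein genes were followed across inguinal white adipose tissue (iWAT) of mice that overproduced or degraded hyaluronan. They were the protein-coding rows of the deposited expression table whose symbols are those of the large (Rpl) and small (Rps) subunit proteins and the stalk proteins, including named paralogs, out of 54532 rows in all. The rule used names only and no measured value.

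The cytosolic ribosome builds every protein encoded in the nucleus, and each of its 2 subunits contains ribosomal RNA and a fixed set of proteins. Most of these proteins are needed in a single copy per ribosome, so cells keep their mRNAs at related levels. The mRNAs commonly begin with a C and a run of pyrimidines, the terminal oligopyrimidine (TOP) tract, through which mTOR signalling adjusts their translation. Some of the genes, including the small subunit gene Rps16, are used as reference genes for adipose tissue qPCR.

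RNA was sequenced in 16 libraries from male mice, 4 in each of 4 groups. Experiments began at 8 to 10 weeks of age, and all mice ate chow with 200 mg/kg doxycycline for 5 days. Has2_TG mice carried Apn-rtTA and TRE-Has2. The adiponectin promoter, which acts in adipocytes, expressed rtTA, through which doxycycline induced the hyaluronan synthase Has2 from the TRE transgene. PH20_TG mice carried Apn-rtTA and TRE-PH20, which encodes the sperm hyaluronidase PH20 (gene Spam1). Has2_WT and PH20_WT were the respective littermate controls and carried Apn-rtTA without either responder, so every mouse had the rtTA driver and the drug. The labels call the controls WT, and the carried driver comes from the study's methods.

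Each library held 14421692 to 26751729 reads on genes. No pair of libraries agreed within sampling noise. The level of Has2 was 0.417 to 0.806 FPKM in Has2_WT and 1.86 to 3.24 FPKM in Has2_TG, where FPKM is a read level scaled to gene length and to the size of the library. Spam1 had no read in any control or Has2 library, and had 6, 12 and 5 reads in PH20_TG2, PH20_TG3 and PH20_TG4. The library labelled PH20_TG1 had 0 Spam1 reads, which allows up to 3 by counting error alone, and its Has2 level was 3.32 FPKM. PH20_TG4 had a Has2 level of 3.26 FPKM. The PH20 results are also given below without PH20_TG1. Adipocyte markers were abundant in all 16 libraries. The summed level of 10 B cell markers was 717.5 and 558.4 FPKM in Has2_WT1 and Has2_WT2, 735.9 and 324.0 FPKM in PH20_WT1 and PH20_WT3, and 61.0 to 206.4 FPKM in the other 12 libraries. T cell markers were high in the same 4 control libraries, and skeletal muscle markers were highest in PH20_WT2, Has2_TG2 and PH20_WT3.

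Start-site sequences show what many of these genes share and where they differ. RefSeq windows on GRCm38.p6 were matched by symbol for 63 of the 83 genes, and 30 bases are printed below, from 12 bases before the annotated start to 18 bases from it on, 5′ to 3′. Runs of 8 or more C or T are in capitals. Rps27, Rps6 and Rps24 are shown because they had lower estimates in PH20_TG that passed the unadjusted test, Rps16 as the study's qPCR reference, Rplp2 as a stalk gene, Rps10 and Rpl13a as genes with very low recorded levels, and Rpl7l1 and Rpl3l as paralogs.
Rps27: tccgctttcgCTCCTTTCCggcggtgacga
Rps6: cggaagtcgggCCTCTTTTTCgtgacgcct
Rps24: gcgctggggTCCTTCCTTgcgcgttgatat
Rps16: gcttctgtcgtgacgtagcactcaatgcgc
Rplp2: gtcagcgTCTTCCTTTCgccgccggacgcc
Rps10: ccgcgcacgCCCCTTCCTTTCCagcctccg
Rpl13a: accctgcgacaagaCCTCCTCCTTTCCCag
Rpl7l1: aggctgcgcaagcgcagtagctgaagcacc
Rpl3l: tgttctagctctgtcatttgacctctggtg

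These windows lie at chr3:90213631-90213660 (minus strand) for Rps27, chr4:86857350-86857379 (minus) for Rps6, chr14:24490666-24490695 (plus, the first of 2 annotated starts) for Rps24 and chr7:28350677-28350706 (plus) for Rps16. Those of Rplp2, Rps10 and Rpl13a lie at chr7:141447639-141447668 (plus), chr17:27635227-27635256 (minus) and chr7:45128728-45128757 (minus). Those of Rpl7l1 and Rpl3l, the latter the first of 2 annotated starts, lie at chr17:46782639-46782668 (minus) and chr17:24727814-24727843 (plus).

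An annotated start with C followed by at least 4 C or T was found for 13 of the 63 matched genes (20.6%), against 3.01% of 27025 genes with a window. A run of 8 or more C or T between 15 bases before and 25 bases after a start was found for 30 of the 63 (47.6%), against 17.5% of all genes. The letters CCGGAAG, searched on both strands of each 300-base window, were found for 25 of the 63 (39.7%), against 9.93%. The printed windows of Rps16, Rpl7l1 and Rpl3l hold no run of 8 or more, so the tract in capitals is not shared by every member shown. These are matches to letters at annotated starts, which can differ from the starts used in adipose tissue.

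Ribosomal protein mRNAs were among the abundant transcripts of iWAT, but their recorded levels spanned a wide range. A total of 82 of the 83 genes had a read in at least 1 library, and 78 had a mean of at least 50 reads, which was required for testing. Among those 78 the mean level over 16 libraries had a median of 123.0 FPKM, and 67 genes were above 50 FPKM. The highest mean levels were those of the stalk gene Rplp1 (1204 FPKM), Rps15 (555 FPKM), the stalk gene Rplp0 (504 FPKM), Rpl36 (467 FPKM) and Rpl41 (370 FPKM), which encodes the smallest ribosomal protein. The lowest among the tested genes were Rps10 (1.85 FPKM), Rpl13a (6.57 FPKM) and the paralog Rpl22l1 (12.2 FPKM). Rplp1 and Rps10 therefore differed 651-fold per length of gene. The gene length behind FPKM was 1 to 7.18 times the length of the main mRNA, with a median of 2.27, so the order depends on the length used. Per kilobase of main mRNA, Rplp1 and Rps10 differed 250-fold, and the highest were Rplp1 (22629 reads), Rpl41 (14285 reads), Rps14 (13567 reads), Rps15 (13206 reads) and Rps9 (12731 reads).

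The very low levels of 4 genes coincided with overlapping annotation. More than 50% of the main mRNA of Rpl24 (71.5%), Rpl36al (63.1%), Rpl13a (59.3%) and Rps10 (53.6%) lay under same-strand exons of another annotated gene in GENCODE M21. Their mean levels were 1.03, 0.234, 6.57 and 1.85 FPKM, and Rpl24, with 20.2 reads on average, was not tested. These compare with a median of 122.8 FPKM over the other 79 genes. The overlapping genes, Gm28037, Gm49383, Gm45713 and RPS10-NUDT3, had 0 reads in every library. Rpl35 and Rpl23a, which had over 50% of their mRNA under exons of the opposite strand only, had mean levels of 104.2 and 206.7 FPKM. Whether the overlap set the low values was not tested, and the values of these 4 genes are uncertain for this reason.

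**Figure D1:**
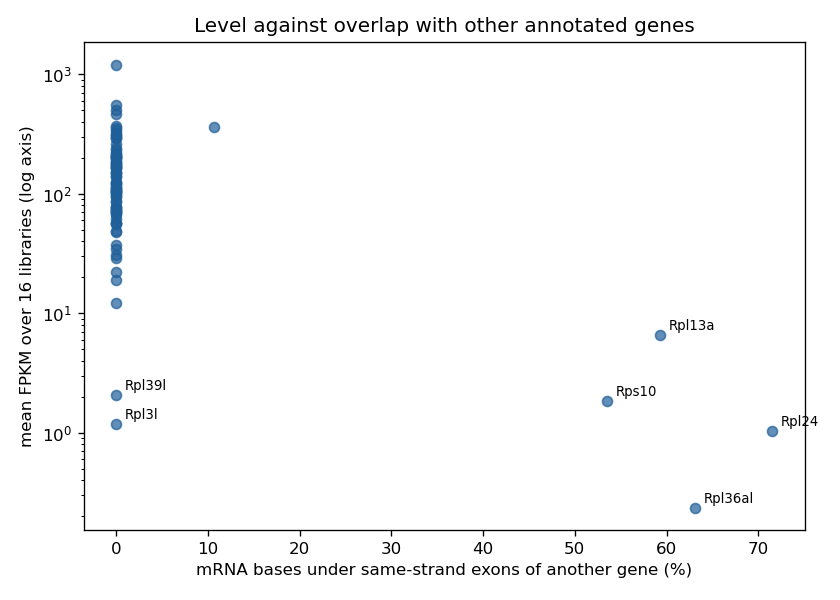
Mean FPKM over 16 libraries (log axis) of each ribosomal protein gene with a read, against the percentage of its main mRNA that lies under same-strand exons of another gene. Each point is a gene. The 4 genes above 50% sit at 0.234 to 6.57 FPKM, and of the genes at 0% the paralogs Rpl39l and Rpl3l alone sit under 10 FPKM.

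Similar copies elsewhere in the genome also bear on these counts. A median of 39.8% of the 100-base stretches of a member's mRNA occurred in a transcript of another gene, with a range of 0 to 98.4% and Rps27 at the top. The 35 genes with over 50% of such stretches had a median level of 106.0 FPKM, and the other 48 had 156.7 FPKM. The 293 pseudogene rows named after a member held 4.27 to 5.72 reads per 100 reads on the members in each library. For Rpl17, Rpl21 and Rps10, such rows held more reads than the gene itself, with means per library of 4819 against 1130 reads, 1626 against 1473 reads and 1662 against 80.2 reads. Genes with long shared stretches are therefore uncertain in level.

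The paralogs differed in level from the genes they resemble. Rpl7l1, a ribosome biogenesis factor related to Rpl7, had a mean of 18.8 FPKM against 182 FPKM for Rpl7. Rps27l, a p53-responsive relative of Rps27, had 75.9 FPKM against 123 FPKM for Rps27, and Rpl22l1 had 12.2 FPKM against 56.5 FPKM for Rpl22. Rpl10l, a testis paralog of Rpl10, had 0 reads in all 16 libraries, which allows up to 3 reads in each, while Rpl10 had 234 FPKM. Rpl39l, also known from testis, had a mean of 30.2 reads (2.04 FPKM) against 55.9 FPKM for Rpl39. Rpl36al had 5.94 reads against a level of 70.4 FPKM for Rpl36a, and lies among the 4 overlapped genes above.

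Rpl3l, the skeletal and cardiac muscle paralog of Rpl3, was detected in some libraries of each group. Its level was 0, 0.314, 0.538 and 0 FPKM in Has2_WT, 1.09, 4.80, 0 and 0 FPKM in Has2_TG, 0.851, 5.38, 2.87 and 1.47 FPKM in PH20_WT and 0, 0.184, 0.182 and 1.24 FPKM in PH20_TG. The 7 libraries with the highest Rpl3l were the 7 with the highest mean log2 level of 14 skeletal muscle markers. Over 16 libraries the correlation of the 2 was 0.89, as a description. The Rpl3l mean was 33.9 reads, under the limit for testing. Rpl3, by contrast, ranged from 93.7 to 228 FPKM and was present in every library.

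The members varied together between libraries. The correlation of a tested gene with the mean of the other tested genes, over 16 libraries, had a median of 0.83 and exceeded 0.8 for 48 of 78 genes. Without PH20_WT1 the median over the 15 libraries was 0.79. A total of 64 of the 78 genes had their highest level in PH20_WT1, where the median gene lay 0.79 log2 units above its own mean. The lowest library was PH20_TG2 for 24 genes, Has2_TG3 for 19 and Has2_WT4 for 16. Only Rpl7l1 (−0.05), Rps27l (0.25) and Rps10 (0.29) had a correlation under 0.5 with the rest, and the first 2 of these are paralogs.

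**Figure D2:**
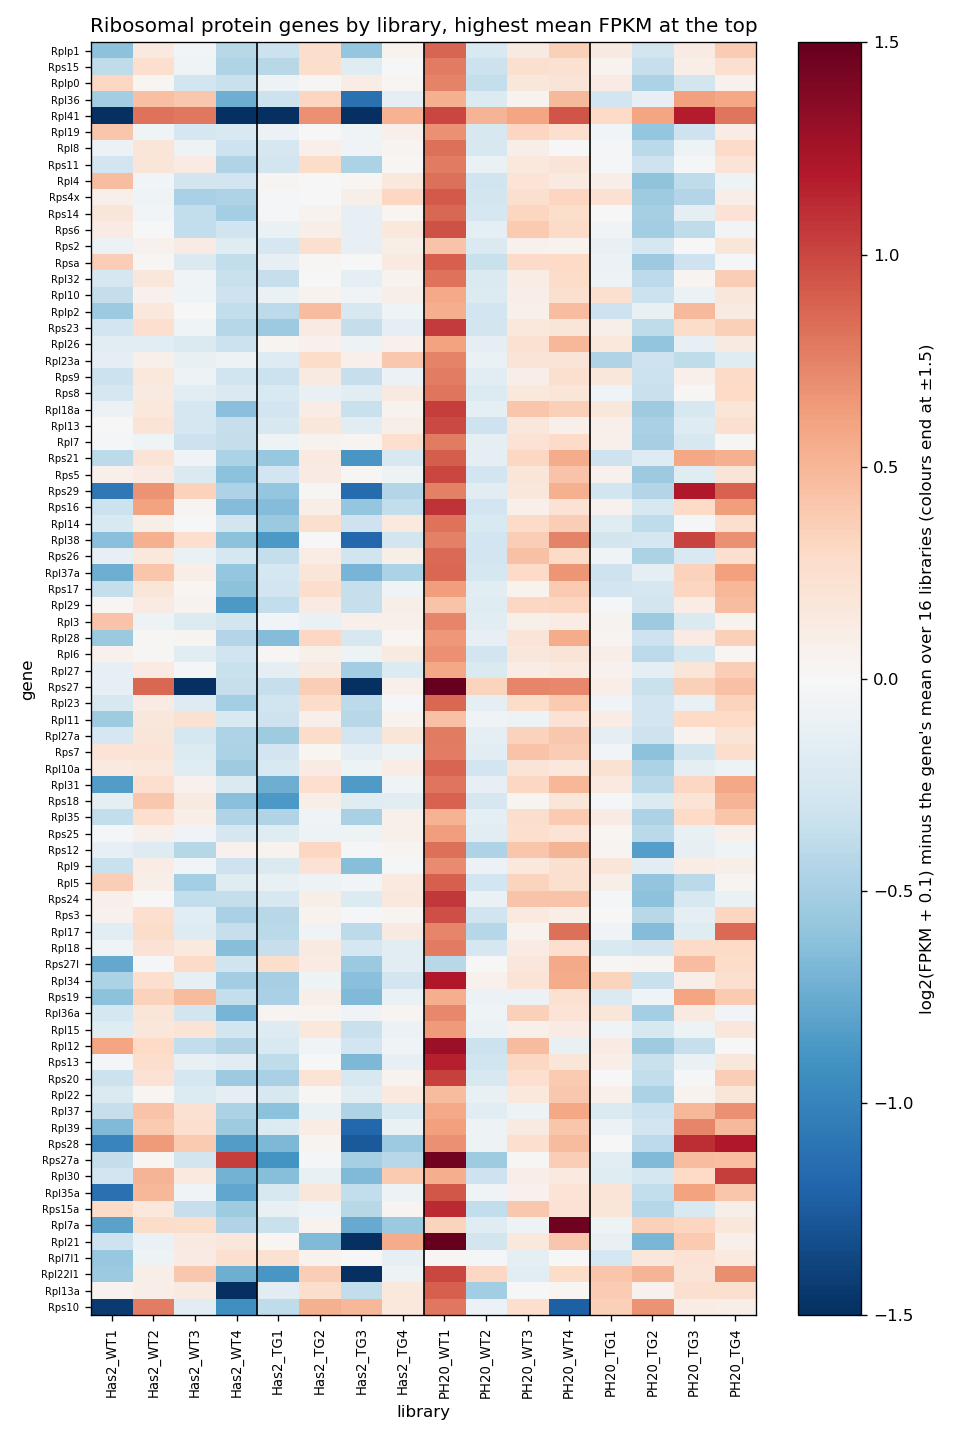
Deviation of each of 78 tested ribosomal protein genes (rows, highest mean FPKM at the top) from its own mean over 16 libraries (columns, in groups of 4), on the log2(FPKM + 0.1) scale. The column of PH20_WT1 holds the highest value of 64 genes, and Rpl41 and Rps27 are each very low in a few Has2 libraries.

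Stable and variable members could be told apart by the SD of log2 level over all 16 libraries, which had a median of 0.36. The steadiest were Rps2 (SD 0.19), Rpl7l1 (0.21) and Rps25 (0.24). The most variable were Rpl41 (1.32), Rps27 (1.06) and Rps28 (0.74), all with main mRNAs of 345 to 544 bases. Libraries differed in their short members: the median deviation of 33 genes with mRNAs under 700 bases, minus that of the other 45, ran from −0.28 in Has2_TG3 and −0.27 in Has2_WT1 to 0.28 in PH20_TG3. Rpl41 was 53.4, 70.4, 65.7 and 60.7 FPKM in Has2_WT1, Has2_WT4, Has2_TG1 and Has2_TG3, and 343 to 636 FPKM in the other 12 libraries. These 4 libraries also had the fewest genes with a read, 15857 to 16550, against 16643 to 21986 elsewhere. Rps27 was at 25.6 FPKM in Has2_WT3 and 15.7 FPKM in Has2_TG3, and at 79.0 to 346 FPKM in the others. Rps27rt, a near-identical copy counted as a gene of its own, had 1745 and 1612 reads in these 2 libraries, its highest counts, where Rps27 had 453 and 306 reads. The copies cannot be separated with confidence, so the low values and the SD of Rps27 are uncertain. Low libraries thus occurred among Has2 controls and transgenics alike, and for these 2 genes they were different libraries apart from Has2_TG3.

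Rps16, the gene the study used to normalise qPCR, differed severalfold between libraries. Its level was 128, 243, 165 and 102 FPKM in Has2_WT and 102, 172, 107 and 124 FPKM in Has2_TG. In PH20_WT it was 339, 131, 168 and 185 FPKM, and in PH20_TG 167, 135, 194 and 246 FPKM. The groups of each comparison overlapped. The log2 fold change, transgenic minus control, was −0.29 ± 0.28 (SE, n = 4 per group; limma adjusted p = 0.786) for Has2 and −0.09 ± 0.31 (limma adjusted p = 0.963) for PH20. The 95% intervals ran from −0.91 to 0.32 and from −0.78 to 0.60, so changes between these bounds were not excluded with 4 libraries per group. Its SD of 0.49 over 16 libraries was above the median of the members. Of its 100-base stretches, 33.9% occurred in other genes. Pseudogene rows named after Rps16 held a mean of 556 reads per library, against 4023 reads on Rps16. The study's beiging qPCR used cold-exposed mice, which are not among these libraries. The PH20 estimate of Rps16 had the opposite sign when PH20_WT1 was left out (0.18).

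Together the 83 genes took 1.54 to 4.18% of the reads on genes. In Has2_WT the share was 1.99, 2.44, 1.72 and 1.54%, and in Has2_TG 1.69, 2.28, 1.78 and 2.15%. In PH20_WT it was 4.18, 1.84, 2.58 and 2.52%, and in PH20_TG 2.19, 1.60, 2.08 and 2.41%. The means were 1.92% ± 0.39 (SD, n = 4), 1.97% ± 0.29, 2.78% ± 0.99 and 2.07% ± 0.34. One PH20 control library carried the top of the range, and the remaining 15 libraries lay between 1.54 and 2.58%. PH20_WT1 was also a library with high B and T cell markers. The others with that feature, PH20_WT3, Has2_WT2 and Has2_WT1, ranked 2, 4 and 10 among the 16 shares. Over 16 libraries the share had a correlation of 0.68 with the mean T cell marker level, 0.59 with the B cell level and −0.64 with the adipocyte level. It was 0.39 with the macrophage, 0.36 with the adipocyte progenitor and 0.30 with the skeletal muscle level. These are descriptions, and the lymphocyte levels fall into a high and a low set. PH20_WT1 had the highest T cell and the lowest adipocyte level, and these correlations were not computed without it. The part of these cells was not tested. In bulk tissue, fewer cells of a type and less RNA per cell cannot be told apart.

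**Figure D3:**
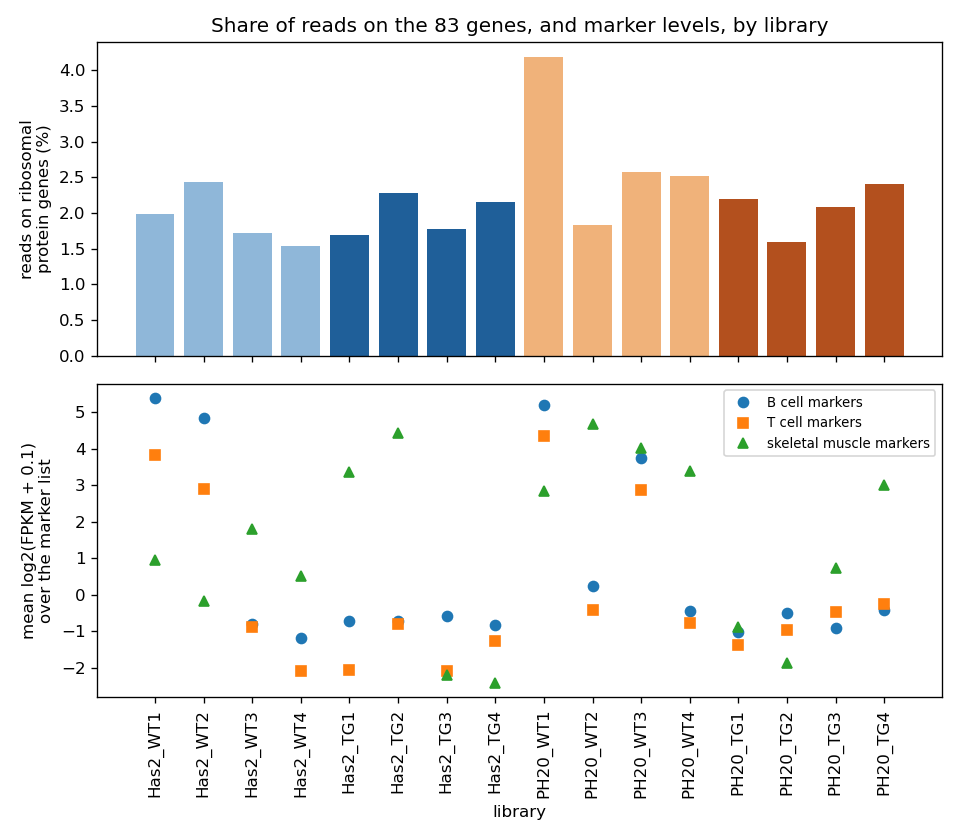
Upper panel, bars of the percentage of reads on the 83 ribosomal protein genes in each of 16 libraries, coloured by group. Lower panel, mean log2(FPKM + 0.1) of B cell, T cell and skeletal muscle marker lists in the same libraries; PH20_WT1 has 4.18% of reads on the genes and high B and T cell markers.

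Has2 overexpression was compared with its littermate controls to ask whether more adipocyte hyaluronan synthase changed these mRNAs. No ribosomal protein gene passed the test in either direction, and the median estimate was near 0. The median log2 fold change of the 78 tested genes was 0.01, beside −0.03 over all 12606 genes tested. Estimates were above 0 for 41 genes and below 0 for 37, from −0.57 for Rps27a, which encodes a ubiquitin fusion with a small subunit protein, to 0.64 for Rps10. The test was limma on log2(FPKM + 0.1), with a call at an unadjusted p under 0.05, the study's threshold. Among all genes, 6.25% were called higher and 3.75% lower, so 0 of 78 in each direction was below the background. The smallest adjusted p of a member was 0.592, and 13 of all genes were past an adjusted 0.05, none of them a member. Beside this, 2 of 10 B cell and 3 of 10 T cell markers were called lower in Has2_TG. Called higher there were 8 of 8 adipocyte progenitor, 6 of 8 macrophage and 1 of 6 endothelial markers. The part of these cells was not tested. With the libraries high in B and T cell markers left out, 4 members were called higher and 0 lower. With the B cell marker level in the fit, 4 were called higher and 1 lower. These alternative counts lack the share of all genes called in the same fits. They are therefore not read as a result about the members.

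Only Rpl26, a large subunit protein at the exit of the peptide tunnel, was higher in every Has2_TG library than in every Has2_WT library. It was 182, 183, 176 and 163 FPKM in Has2_WT and 211, 214, 194 and 213 FPKM in Has2_TG. Non-overlap in that direction occurred for 4.08% of all genes and in the other for 2.11%, and no member was lower without overlap, so 1 of 78 was below the background. The 31 small subunit genes had a median of −0.0034 and the 44 tested large subunit genes one of 0.01. Rplp0, Rplp1 and Rplp2, which form the stalk that recruits elongation factors, had estimates of 0.09, 0.08 and 0.13, each within 1 SE of 0. The paralogs Rpl7l1, Rps27l and Rpl22l1 had estimates of 0.11, 0.12 and −0.42, with SEs of 0.19, 0.25 and 0.46.

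PH20 overexpression was compared with its own littermate controls, to ask whether hyaluronan degradation changed the same genes. Estimates were mostly negative, with 69 of 78 below 0 and a median of −0.27, beside 0.01 over all 12532 genes tested. The members varied together between libraries, so the 78 estimates are not separate observations. The mean log2 level of the members had an SD of 0.30 between libraries of a group, averaged over the 4 groups. Of the 78, 0 were called higher and 4 lower: Rps27, Rps24, Rps6 and Rpl23a. Among all genes, 3.2% were called higher and 3.39% lower, so 5.13% of members called lower was close to the background, and no member passed adjustment (smallest limma adjusted p = 0.684). No gene of the table passed an adjusted 0.05 in this comparison, while 401 were higher and 425 lower at an unadjusted p under 0.05. One member, Rpl23a, was lower in every PH20_TG library than in every control, against 2.33% of all genes, and no member was higher without overlap, against 2.21%.

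The members called lower hold known roles in the small and large subunits. Rps27, a zinc-binding small subunit protein, was 346, 126, 166 and 165 FPKM in PH20_WT and 107, 79.2, 129 and 136 FPKM in PH20_TG. The groups overlapped because PH20_WT2 lay below 2 transgenic libraries. The estimate was −0.75 ± 0.31 on the log2 scale (SE; limma adjusted p = 0.731). Rps24, whose human gene is mutated in some cases of Diamond-Blackfan anaemia, was 175, 78.4, 113 and 113 FPKM in PH20_WT and 82.5, 54.8, 71.3 and 78.0 FPKM in PH20_TG. Only PH20_WT2 and PH20_TG1 crossed, and the log2 fold change was −0.70 ± 0.24 (limma adjusted p = 0.702).

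Rps6, the ribosomal substrate of S6 kinase, was 553, 259, 376 and 349 FPKM in PH20_WT and 276, 199, 220 and 277 FPKM in PH20_TG. PH20_WT2 was again below the highest transgenic libraries, and the log2 fold change was −0.62 ± 0.24 (limma adjusted p = 0.703). Rpl23a, which binds near the tunnel exit, was 337, 189, 231 and 232 FPKM in PH20_WT and 147, 162, 155 and 178 FPKM in PH20_TG, a log2 fold change of −0.59 ± 0.19 (limma adjusted p = 0.684). Of the 4, Rps27 and Rps6 begin with the tract printed above, and Rpl23a had no matched RefSeq window. More than 50% of the 100-base stretches of Rps27 (98.4%), Rps6 (83.6%) and Rpl23a (80.0%) occurred in other genes, and 10.7% of those of Rps24. Rpl23a also shares 55.4% of its mRNA span with exons of Tlcd1 on the opposite strand. If the counting ignored strand, reads that overlap both genes would be assigned to neither.

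**Figure D4:**
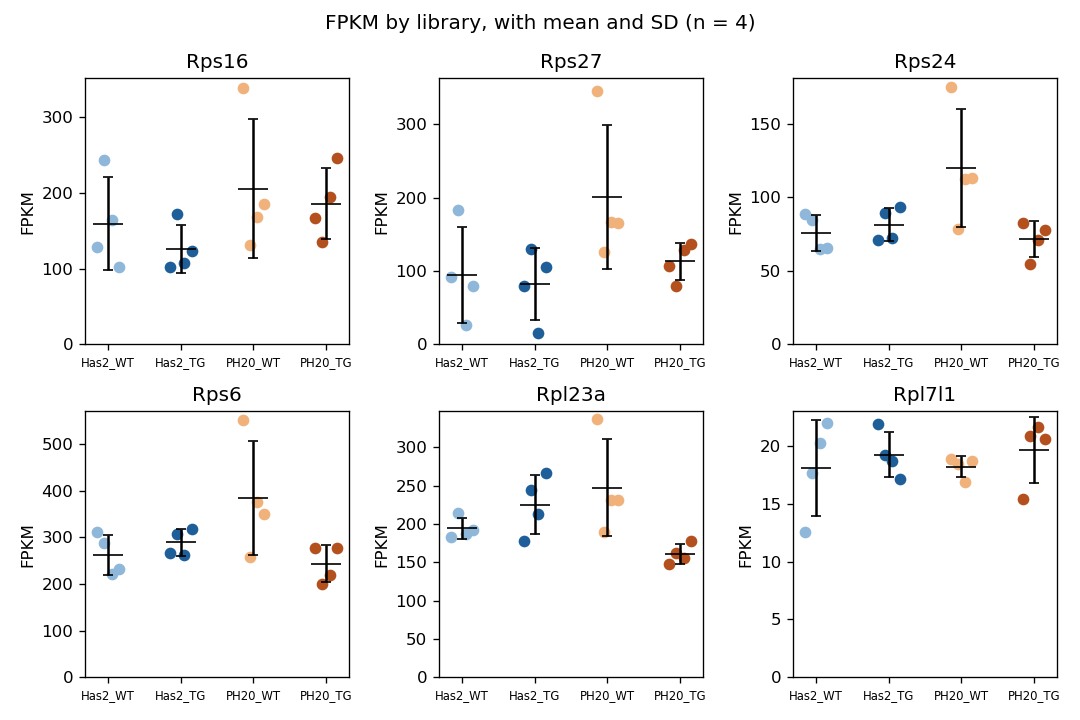
FPKM of 6 ribosomal protein genes in each library (points), with group mean and SD (n = 4), from a zero baseline. Rps27, Rps24, Rps6 and Rpl23a have their highest value in PH20_WT1, and Rpl7l1 stays between 12.5 and 22.0 FPKM.

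The PH20 counts moved with single libraries of both groups. The number called lower was 2 without PH20_WT1, 24 without PH20_WT2, 2 without PH20_WT3, 2 without PH20_WT4 and 1 without PH20_TG2. Except for the fit without PH20_TG1, the alternative counts here lack the share of all genes called in the same fit. Whether such shifts were particular to the members is therefore not shown. The median went from −0.27 to −0.09 without PH20_WT1. With PH20_WT1 and PH20_WT3, the PH20 controls high in B and T cell markers, both left out, 0 were called lower and 1 higher. Among marker genes, 6 of 10 B cell, 5 of 10 T cell and 12 of 13 tested skeletal muscle genes were called lower in PH20_TG, and with either the B cell or the muscle marker level in the fit 0 members were called lower. Without the library labelled PH20_TG1, which had no Spam1 read, 3 members were called lower, all of the 4 but Rps27, and the Rps16 estimate was −0.05. The median of the 78 members was then −0.25 with 64 estimates below 0, and the calls over all genes were 4.88% lower. The small and large subunit medians were −0.30 and −0.25, Rplp0, Rplp1 and Rplp2 were at −0.41, −0.21 and −0.03, and Rpl7l1, Rps27l and Rpl22l1 at 0.21, 0.18 and 0.11. The part of these cell types in the result was not tested.

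**Figure D5:**
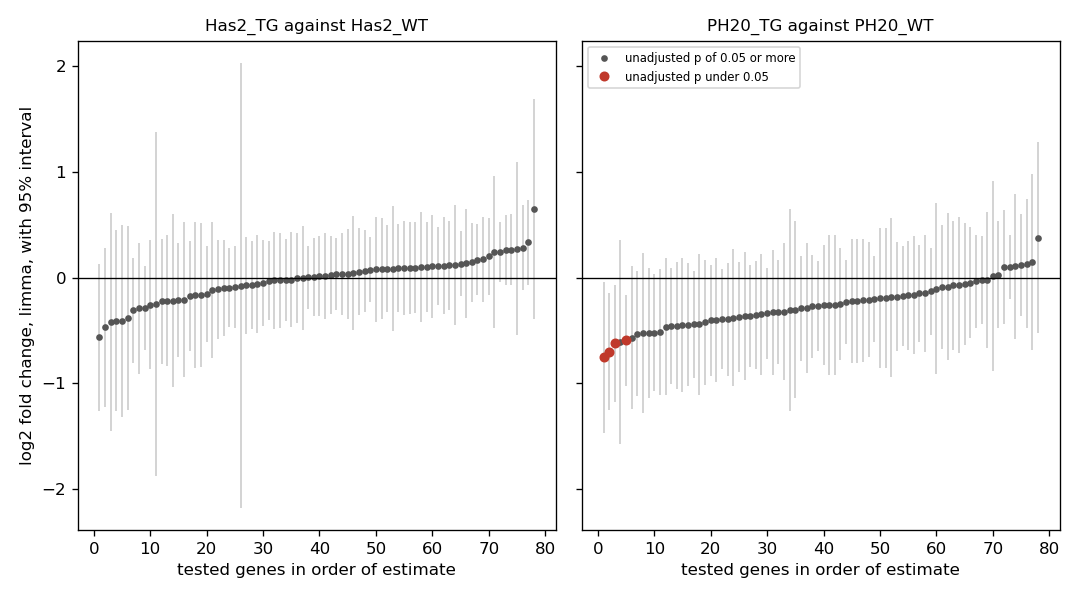
Log2 fold changes of the 78 tested genes in order of estimate, with 95% intervals from limma, for Has2 (left) and PH20 (right). Large points are genes with an unadjusted p under 0.05; 0 genes are so marked for Has2 and 4 for PH20, where 69 of 78 estimates lie below 0.

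Most of the other members also had estimates below 0, without passing the test. The 31 small subunit genes had a median of −0.29 with 3 called lower, and the 44 large subunit genes one of −0.26 with 1 called lower. Rplp0, Rplp1 and Rplp2 had estimates of −0.33, −0.19 and −0.15, with SEs of 0.26, 0.29 and 0.24. The paralogs Rpl7l1, Rps27l and Rpl22l1 were at 0.10, 0.12 and 0.10, which places all 3 among the 9 members with an estimate above 0. For Rpl7l1 the 95% interval ran from −0.20 to 0.40.

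The difference between the PH20 and Has2 effects was itself tested in 1 fit over 16 libraries, and no member passed adjustment. The members varied together between libraries, so calls among them are not separate observations. At an unadjusted p under 0.05, 8 of 78 tested genes (10.3%) had a lower transgenic effect in the PH20 study, and 0 a higher one. Over all 12593 genes the shares were 4.03% lower and 3.68% higher. The 8 were Rps12 (−0.83), Rps24 (−0.81), Rps4x (−0.79), Rpl23a (−0.79), Rps6 (−0.77), Rpl7 (−0.70), Rpl36a (−0.65) and Rpl26 (−0.64), and their smallest limma adjusted p was 0.571. In the same test 6 of 8 adipocyte progenitor, 3 of 8 macrophage and 4 of 13 skeletal muscle markers had a lower effect, and their part was not tested. The count ranged from 4 to 21 when single libraries were left out, from 4 without PH20_WT1 or PH20_TG2 and 5 without Has2_WT3 to 21 without PH20_WT2. It was 8 without PH20_TG1 and 5 without the 4 control libraries high in lymphocyte markers. The share of all genes called in each of these fits is not given, so the counts have no background.

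The 2 control groups were also compared for these genes. PH20_WT had the higher estimate against Has2_WT for all 78 genes, with a median of 0.39, and 12 were called higher and 0 lower, against 5.29% and 4.77% of all 12673 genes. The members varied together, so the 78 estimates are not separate observations. In the same comparison 12 of 13 skeletal muscle, 6 of 8 macrophage and 3 of 8 adipocyte progenitor markers were called higher in PH20_WT, and their part was not tested. No member passed adjustment (smallest limma adjusted p = 0.449). The largest estimates were those of Rpl41 (1.46 ± 0.73, not called) and Rps27 (1.28 ± 0.55). The highest of the 4 group means was in PH20_WT for 68 genes and in PH20_TG for 10, and in a Has2 group for 0. The study and the litter cannot be told apart here, and this comparison shares its controls with those above. The number called higher was 0 without PH20_WT1 or Has2_WT4, 1 without PH20_WT4, 2 without PH20_WT3, 3 without Has2_WT1, 5 without Has2_WT3 and 32 without PH20_WT2. With the muscle marker level in the fit 44 were called, and without the 4 libraries high in lymphocyte markers 1 was. The 5.29% and 4.77% above belong to the main fit. The shares of all genes in the alternative fits are not given, so those counts are not read as particular to the members.

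Genes that act with the ribosome gave a mixed account. Their counts are to be read beside the 6.25% higher and 3.75% lower of all genes for Has2, and 3.2% and 3.39% for PH20. Fau, Rps3a1 and Rack1, ribosomal proteins whose symbols lie outside the name rule, had 0 called in either transgenic comparison. Rps3a1 was at 0.23 ± 0.17 for Has2 and −0.48 ± 0.29 for PH20. Of 77 tested mitochondrial ribosomal protein genes, 4 (5.19%) were called lower and 0 higher for Has2, among them Mrpl39 (−0.52 ± 0.17), Mrpl1 (−0.57 ± 0.22) and Mrps31 (−0.56 ± 0.22). For PH20, Mrpl14 was called higher (0.65 ± 0.24) and Mrps30 lower (−0.40 ± 0.15), and the list's median was 0.05, where that of the cytosolic genes was −0.27. Without PH20_TG1, 7 were called higher and 0 lower. In that fit 559 of 12510 genes were called higher and 611 lower. These are the background for the further counts without PH20_TG1 below.

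Of 67 ribosome biogenesis genes, 2 (2.99%) were called lower for Has2 and 0 higher, under the background. These were Polr1e, an RNA polymerase I subunit (−0.99 ± 0.40), and Bysl, which matures the small subunit (−0.44 ± 0.19). Bysl was the single biogenesis gene called for PH20, where it was higher (0.49 ± 0.19). The list's median was −0.16 for Has2, with 55 of 67 estimates below 0, and −0.05 for PH20. Without PH20_TG1, 1 was called higher, with Bysl at 0.60, and 1 lower.

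Of 18 elongation factors and other TOP mRNAs, 0 were called for Has2 and 3 (16.7%) were called lower for PH20. The 3 were Naca, of the nascent chain complex (−0.40 ± 0.12), Eif3e, an initiation factor subunit (−0.38 ± 0.15), and Btf3, the partner of Naca (−0.36 ± 0.15), and 17 of 18 estimates were below 0 with a median of −0.24. Without PH20_TG1 the same number, 3, were called and the median was −0.30. This median was near that of the ribosomal protein genes in the same mice. Of 28 initiation factors, Eif3d was called higher (0.30 ± 0.13) and Eif4g1 lower (−0.41 ± 0.16) for Has2, and Eif1a was called higher for PH20 (0.58 ± 0.11; limma adjusted p = 0.582). Of 22 tested growth control genes, Mtor (−0.57 ± 0.22) and its inhibitor Deptor (−0.53 ± 0.19) were called lower for Has2 (9.09%), and 0 were called for PH20. Without PH20_TG1, 1 growth control gene was called higher and 2 lower for PH20, and 1 initiation factor was called higher. None of these genes passed adjustment over all genes.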

How the data were processed

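The deposited table gives FPKM per gene and library with each gene's length. Per the labels and the study's methods, the authors checked reads with FastQC 0.11.9 and MultiQC 1.12, aligned TruSeq RNA libraries to GRCm38 with STAR 2.7.9a and counted reads per gene with STAR. In that mode a read matching several places or overlapping several genes is not assigned. Whether strand was used is not given in the sources used here. Of the values, 100% were whole reads within 0.01 after multiplying by length and a library total, which differed from the summed reads by a factor of 0.886 to 1.14; these reads set the minimum and the shares.

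Groups were compared with limma 3.58.1 (R 4.3.3) on log2(FPKM + 0.1), with a mean-variance trend, over genes averaging 50 reads or more in the libraries fitted. Calls used an unadjusted p under 0.05, and Benjamini-Hochberg adjusted values cover all genes tested. A log2 fold change on this scale understates changes of low genes. Negative binomial count models were not used because the deposited unit is FPKM, and voom weights on the recovered reads were an alternative. The labels number the libraries without naming animals, so p-values measure the spread between these samples, which may be technical.

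The members and gene lists were chosen with earlier results of these data known. Genes named were Rps16; up to 5 called members per direction and transgenic comparison; paralogs and the genes they resemble; the stalk genes; the 5 highest and 3 lowest levels; the 3 smallest and 3 largest SDs; members under the minimum; and, per translation list, the 3 smallest p-values in each comparison, of which those called or needed are printed. One listed gene is not reported here. Adipocyte markers had 0 of 10 called in both, and skeletal muscle markers 0 of 12 for Has2. Macrophage, adipocyte progenitor and endothelial markers were also measured: 6 of 8, 8 of 8 and 1 of 6 were called higher for Has2, and 0 of each were called for PH20. Without PH20_TG1, 6 of 8 macrophage markers were called lower for PH20. In that fit 1 of 6 endothelial and 1 of 10 adipocyte markers were called higher, and 0 of 8 adipocyte progenitor markers were called. Marker levels are means of log2 values. Overlap and shared stretches used GENCODE M21. Alternatives were another pseudocount, no minimum, other scalings, all libraries in 1 fit, the replicate block, marker covariates and leaving libraries out.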

Additional observations from a re-analysis of the deposited data

Results flagged for a closer look

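In groups of 4 libraries, 120 sets of values were tested for a library far from its group, and 5 were flagged, where chance flags about 1 in 20. Rpl13a was 2.13 FPKM in Has2_WT4 and at least 6.49 FPKM in the other 3 Has2_WT libraries. Rpl36a was 66.1 FPKM in Has2_TG3, just under 70.6 to 70.9 FPKM in the rest of its group. Rpl7l1 was 15.4 FPKM in PH20_TG1 and 20.6 to 21.6 FPKM in the others. Rpl36al, with under 50 reads, was 0.658 FPKM in PH20_WT2 and at most 0.0749 FPKM in the others, and Rpl3l was 1.24 FPKM in PH20_TG4 and at most 0.184 FPKM in its group.

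At an unadjusted p under 0.05, 8 members were called for a difference in transgenic effect between the studies. The estimates were −0.83 for Rps12, −0.81 for Rps24, −0.79 for Rps4x, −0.79 for Rpl23a, −0.77 for Rps6, −0.70 for Rpl7, −0.65 for Rpl36a and −0.64 for Rpl26 (log2, PH20 minus Has2). None passed adjustment, and the causes were not tested.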

How the results depend on the processing

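Calls at an unadjusted p rested on 4 libraries per group, and 1 control library could move them severalfold. The counts of members below lack the share of all genes called in the same fits. They show how calls moved, and are not read as shifts particular to these genes. For Has2 the counts were 4 higher and 1 lower with the B cell level in the fit, and 4 higher without the libraries high in B and T cell markers, an alternative chosen after seeing the data, as were quantile normalization and left-out libraries for the last 2 comparisons below. Leaving out single libraries gave 0 to 2 higher (1 without Has2_WT1, 2 without Has2_WT2). For PH20, 0 were lower and 1 higher with the B cell level or without the libraries high in lymphocyte markers, and 0 were lower with the muscle level. All 16 libraries in 1 fit gave 12 lower, and single left-out libraries gave 1 to 24. The Rps16 estimate for PH20 had the opposite sign with the B cell level (0.36), the muscle level (0.14), without the libraries high in lymphocyte markers (0.22), and in the range −0.28 to 0.18 over left-out libraries. The difference between studies had 1 higher with no minimum, 5 lower with the muscle level or without the lymphocyte-high libraries, and 4 to 21 over left-out libraries. The control comparison had 44 higher with the muscle level, 7 after quantile normalization, 1 without the lymphocyte-high libraries and 0 to 32 over left-out libraries. As a share of summed FPKM the means were 3.21, 3.14, 4.34 and 3.24% in Has2_WT, Has2_TG, PH20_WT and PH20_TG. Pseudocount 1, median-of-ratios scaling and voom weights moved no count by over 1.5 times. The causes of these shifts were not tested.

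With the replicate block, 24 members were lower for PH20, and 0 were called for Has2, again without the share of all genes beside them. Deviations of same-numbered libraries correlated at −0.01, 0.13, −0.18 and 0.01 for Has2 and 0.35, 0.42, −0.03 and −0.04 for PH20. The best-correlated transgenic library had the same number for Has2_WT2, PH20_WT1 and PH20_WT2, and another number for the other controls. The labels name no pairs, so the main tests did not pair the mice. Whether the PH20 libraries were paired is not settled by these values.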
